A study of Mus musculus with 6 samples.

Results

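The circadian clock genes sought were the activators Arntl (also known as Bmal1), Clock and Npas2, the repressors Per1, Per2, Per3, Cry1 and Cry2, and the output factors Dbp and Tef. Of these 10 genes, 6 were rows of the deposited table of 10580 genes, namely Arntl, Clock, Per2, Cry1, Dbp and Tef. Npas2, Per1, Per3 and Cry2 were absent from it and have no value here. A gene's absence from the table does not show that its RNA was absent from the cells.

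RNA was sequenced from Leydig cells, the androgen-producing cells of the testis, in 3 libraries of fetal Leydig cells (FLCs) at E18.5 and 3 of adult Leydig cells (ALCs) at P100. All animals were XY and carried the Nr5a1 Tg allele, a green fluorescent protein gene driven by Nr5a1, in the heterozygous state per the methods, so no library came from animals without the transgene. The fetal cells came from embryos of CD-1 mothers and were pooled over several purifications to reach the RNA needed. Per the methods, the adult cells also came from several purifications, and no strain is named for the P100 mice. Adult testes were digested with collagenase, hyaluronidase and DNase before trypsin, and fetal testes with trypsin alone. Nr5a1 is active in Sertoli cells as well, and the gate took the cells of strongest fluorescence. The P100 mice were killed in the morning, whereas the hour at which the embryos were collected is not given in the sources used here.

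The only values used were the authors' means over all 6 libraries, FLCs and ALCs together, of counts divided by a size factor for each library. Such a pooled mean has no SD and no n of its own, and the depth of the single libraries is unknown. No difference between FLCs and ALCs is therefore reported, and the order of the genes below is a description with no test. The table also holds the authors' own comparison of both stages, which was left out. It lists genes with an adjusted p under 0.05 in that comparison, so percentiles given below are places among the listed genes and not among all expressed genes. For the same reason each pooled mean averages 2 stages whose levels may lie apart by a different factor for each gene, and an order of genes in the pooled means may hold in neither stage.

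The molecular clock is a loop of transcription that runs in many cells of the body with a period of about a day. Whether it ran in these FLCs or ALCs cannot be read from pooled means. ARNTL and CLOCK bind as a pair to E-boxes in the promoters of Per and Cry genes, and the PER and CRY proteins then enter the nucleus and block that pair. A second loop runs through the nuclear receptors REV-ERB and ROR, which repress and activate Arntl through ROR elements. DBP and TEF are bZIP factors that bind D-boxes and carry the rhythm to further genes. Because the RNA of many of these genes rises and falls over the day, a level taken at 1 time of day is not the level over the day.

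The promoter sequences are shown first because E-boxes and ROR elements are the sites through which the loop acts on its own genes. RefSeq promoter windows on GRCm38.p6, from 250 bases before to 50 after a transcription start, were found for 5 of the 6 genes (9 windows), and Per2 was not matched. Both strands were searched for the E-box CACGTG, the related E'-box CACGTT, the D-box TTATGTAA, and a ROR element written as an A, any pair of bases and a T followed by AGGTCA. In each line the capitals mark the match, and the flanks are in lower case, 5′ to 3′ on the strand of the gene.
Cry1 E-box: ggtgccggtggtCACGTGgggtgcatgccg
Cry1 E'-box: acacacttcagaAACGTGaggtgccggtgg
Tef E-box, upstream start site: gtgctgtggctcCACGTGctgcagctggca
Tef E-box, downstream start site: cacctggcccagCACGTGtctacatcgttt
Arntl ROR element: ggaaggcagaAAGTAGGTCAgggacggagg

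The E-box of Cry1 (capitals in the first line) began 60 bases before the start, and the 30 bases shown lie at chr10:85185097-85185126 on the minus strand. Its E'-box, which reads as CACGTT on the strand opposite to the gene, began 79 bases before the start, at chr10:85185116-85185145 with its flanks. The stretches shown for these 2 sites share their edges, but the matches themselves do not overlap. Tef had an E-box at both of its RefSeq starts, 127 bases before the upstream one (chr15:81802534-81802563 on the plus strand) and 138 bases before the downstream one (chr15:81811264-81811293). In Arntl a ROR element began 27 bases after the second start, at chr7:113207528-113207557 on the plus strand, inside the transcribed sequence. Only 4 of the 9 RefSeq starts were also the start of a GENCODE M21 transcript. Of the 5 sites shown, only the E-box at the downstream start of Tef was in the window of such a shared start. The upstream RefSeq start of Tef lay 252 bases inside the GENCODE gene and the downstream one 8993 bases inside, so both E-boxes are within the annotated gene. The RefSeq start of Cry1 lay 10 bases inside its GENCODE gene, and both Cry1 sites stood before the 5′ end of that gene. The windows of Clock (3 starts) and Dbp (1 start) held none of these motifs, which says only that these letters are not in these windows.

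**Figure D1:**
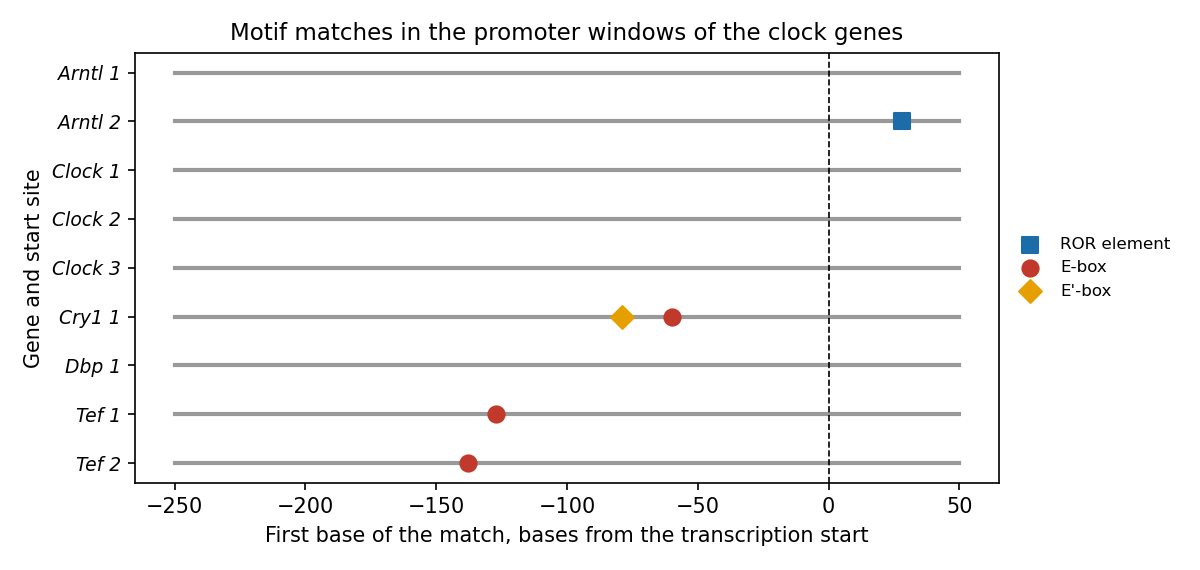
Matches of the E-box, E'-box and ROR element in the 9 promoter windows of 5 clock genes. The x axis gives the first base of each match in bases from the transcription start (dashed line), and each grey bar is 1 window of 300 bases, numbered by start site within a gene. The E-boxes of Cry1 and Tef lie 60 to 138 bases before a RefSeq start, and the ROR element of Arntl lies after one.

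An E-box was thus found in 2 of 5 clock genes with a window. Over the whole promoter table, 8.09% of 27025 genes held one in at least 1 window, and so did 11.1% of the 7928 genes of the deposited table that had a window. A gene with more windows has more places for a match, and the 5 genes had 9 windows. By window, an E-box was in 3 of these 9, against 7.15% of all 32851 windows. The E'-box was found in Cry1 alone of the 5 genes, against 6.16% of the genes of the deposited table. The ROR element was found in Arntl alone, against 0.505% of them, and no member held an exact D-box, a motif present in 0.782% of them. The counts over 5 genes are too small for a comparison of shares, and a match of letters is not a site that was shown to be bound. Cry1 and the first 2 starts of Clock had windows rich in G and C, at 72.3%, 76.3% and 76.7%, whereas the third start of Clock had 47.0%. The windows of Arntl (60.7% and 61.7%), Dbp (60.3%) and Tef (64.0% and 62.0%) lay nearer to the median of 59.7% over the windows of all listed genes.

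Among the activators, Arntl had an authors' mean of 1114 normalized counts, which placed it above 61.5% of the listed genes. Arntl encodes the bHLH-PAS protein without which the clock does not run, and its gene (ENSMUSG00000055116.8) spans chr7:113207465-113314126 of GRCm38 on the plus strand. Clock, whose product pairs with ARNTL, had 1846 normalized counts, above 74.0% of the listed genes. The gene (ENSMUSG00000029238.11) lies at chr5:76209868-76304792 on the minus strand. Since long RNAs give more reads, levels of different genes were compared per kilobase (kb) of exon, with the union of a gene's annotated exons in GENCODE M21 as its length. Clock has the longest exon union of the 6 genes, 13727 bases, and Arntl has 7523. Per kb of exon the mean level was 148 normalized counts for Arntl and 134 for Clock, a ratio of 1.10 that depended on the length used (0.815 to 1.65). Against all listed genes these levels per kb were at the middle, since the median was 147 (quartiles 31.7 and 427).

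Of the repressors, Per2, whose product is one of the PAS proteins that carry the CRY proteins into the nucleus, had an authors' mean of 1520.0 normalized counts, above 69.1% of the listed genes. The gene (ENSMUSG00000055866.9) lies at chr1:91415982-91459324 on the minus strand and has 5856 bases of exon, which gave 260 normalized counts per kb. Cry1 encodes a flavoprotein that blocks CLOCK and ARNTL. It had the lowest mean of the 6 genes, 659 normalized counts, above 49.5% of the listed genes and just under their median of 679. The gene (ENSMUSG00000020038.10) lies at chr10:85131700-85185064 on the minus strand, and with 3340 bases of exon its level per kb was 197. By the union of exons, Cry1 was 1.33 times Arntl and 1.47 times Clock per kb, but by coding length it was 0.618 times Arntl and 0.504 times Clock.

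Tef and Dbp, the output factors, had the highest pooled levels per kb of the 6 genes. Tef (ENSMUSG00000022389.15, chr15:81802421-81826863, plus strand) had an authors' mean of 2442 normalized counts, above 80.5% of the listed genes, and 310 per kb. It alone of the 6 genes was above the upper quartile of the listed genes, 1928, as deposited, and per kb none of them was above it. Dbp (ENSMUSG00000059824.12, chr7:45705088-45710203, plus strand) had 1063 normalized counts, above 60.5% of the listed genes. With the shortest exon union, 2993 bases in 4 blocks, Dbp had the highest level per kb, 355, which was 2.40 times that of Arntl and 2.64 times that of Clock.

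**Figure D2:**
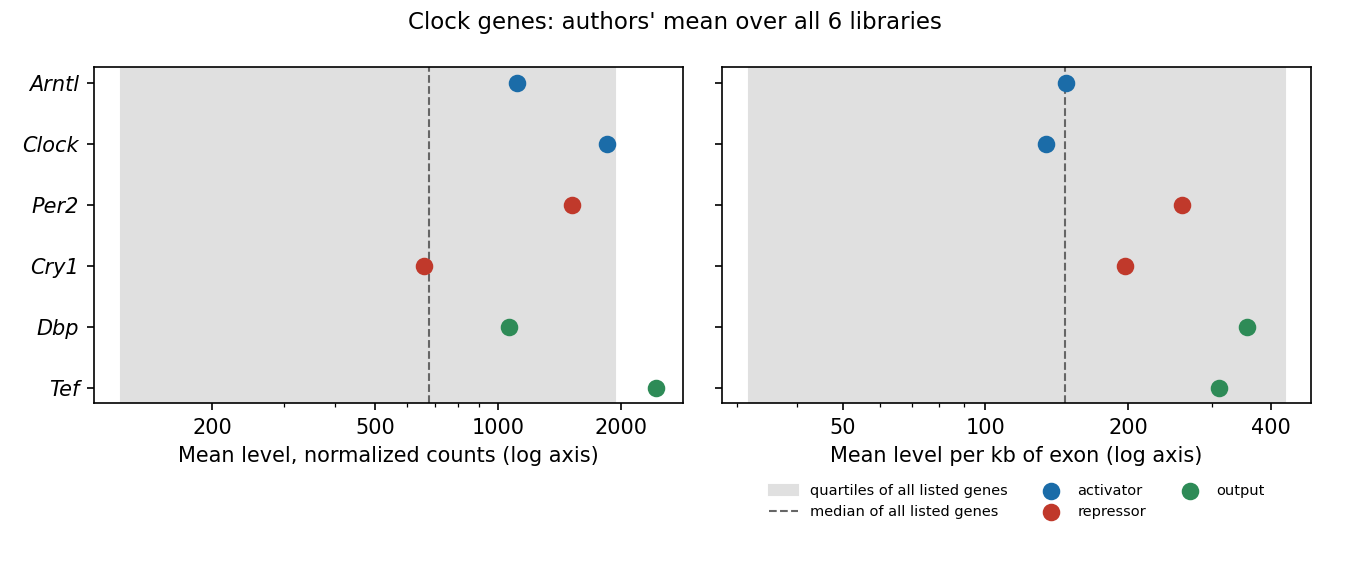
Level of the 6 clock genes as the authors' mean over 6 libraries, in normalized counts (left) and per kb of exon (right), on log axes, with 1 point per gene coloured by role. The grey band spans the quartiles of all listed genes and the dashed line is their median. Tef is highest on the left (2442) and Dbp on the right (355), and pooled means have no error bars.

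The order of the genes per length depended in part on the length used. Besides the union of exons, the longest annotated transcript, the median of the protein-coding transcripts and the coding length were used. Dbp and Tef were above each of the other 4 genes with all 4 lengths, which accounts for the 8 of 15 pairs that kept their order with every length. Tef against Per2 had the smallest of these ratios, 1.20 with the union of exons, and Tef against Cry1 the largest, 7.46 with the coding length. Between Dbp and Tef the order turned, with Dbp 1.14 times Tef by the union of exons and 0.403 times Tef by coding length. Tef has 10 annotated transcripts, the most of the 6 genes, and only 903 bases of coding sequence in an exon union of 7867. The activators turned as well, Arntl being 1.47 times Clock by the longest transcript, 1.65 times by the median protein-coding transcript and 0.815 times by coding length. Cry1 against Arntl kept its order with 2 of the 4 lengths, being 0.781 times Arntl by the longest transcript. Per2 against Arntl kept its order with only 1 of the 4. It was 1.75 times Arntl by the union of exons, but 0.934 times by the longest transcript, 0.639 by the median protein-coding transcript and 0.687 by coding length. Per2, with 2 annotated transcripts, had the narrowest range over the 4 lengths, from 260 to 403 normalized counts per kb, followed by Cry1 with 197 to 411. Which transcripts the cells used cannot be read from a sum over the gene.

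**Figure D3:**
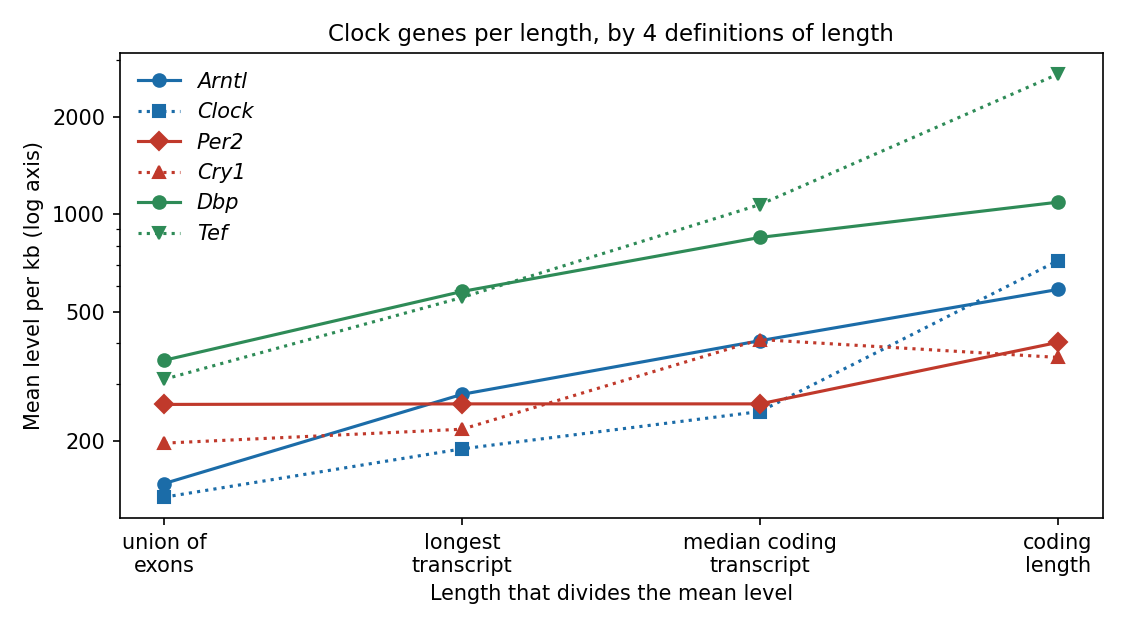
Mean level of the 6 clock genes per kb (log axis) with 4 definitions of length on the x axis. Each line joins the values of 1 gene. Dbp and Tef (green) lie above Arntl, Clock, Per2 and Cry1 with each length, while the lines of these 4 cross.

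Reads can also be shared between genes. Dbp overlaps Sphk2, the gene of a sphingosine kinase on the opposite strand, over 539 bases of exon, which is 18.0% of the exons of Dbp. The authors' mean of Sphk2 was 2429 normalized counts, higher than that of Dbp. Of the 3037 different stretches of 50 bases in the transcripts of Dbp, 492 (16.2%) occurred, on either strand, in a transcript of Sphk2. The libraries were stranded per the labels, but whether the counting used strand is not given in the sources used here. How much of the level of Dbp came from reads of Sphk2 is therefore unknown. A share of bases is not a share of reads, so the place of Dbp among the genes is uncertain too. Tef shared 193 bases (2.45% of its exons) with the antisense gene Gm17597, and Arntl 33 bases (0.439%) with Gm45355. For Clock, Per2, Cry1 and Arntl, no stretch of 50 bases was found in transcripts of another gene. No such stretch was shared between 2 of the 10 clock genes sought for any of the 6 genes, so exact matches of the read length would not be split between paralogs.

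Of 21 further clock genes, 14 were in the table. Of these, 4 were above all 6 genes described so far per kb of exon, 2 lay between them and 8 were below. The highest were Csnk1d, a casein kinase that phosphorylates PER proteins (1356 per kb), and Nono, an RNA-binding partner of PER (1345 per kb). Bhlhe40, a bHLH repressor that competes for E-boxes, followed with 787 per kb. Of the REV-ERB receptors, Nr1d1 had 667 per kb and Nr1d2 had 271, close to Per2. Rora, which encodes a ROR receptor, had 79.1 per kb, and Rorb was absent from the table. Hlf, the third bZIP factor of the family of Dbp and Tef, had 56.4 per kb, below all 6 genes. Lowest were Ciart, a repressor of CLOCK and ARNTL, with 30.3 per kb, and Bhlhe41, the paralog of Bhlhe40, with 24.3. The other genes absent from the table were Arntl2, Nfil3, Fbxl21, Fbxw11, Gsk3b and Noct.

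**Figure D4:**
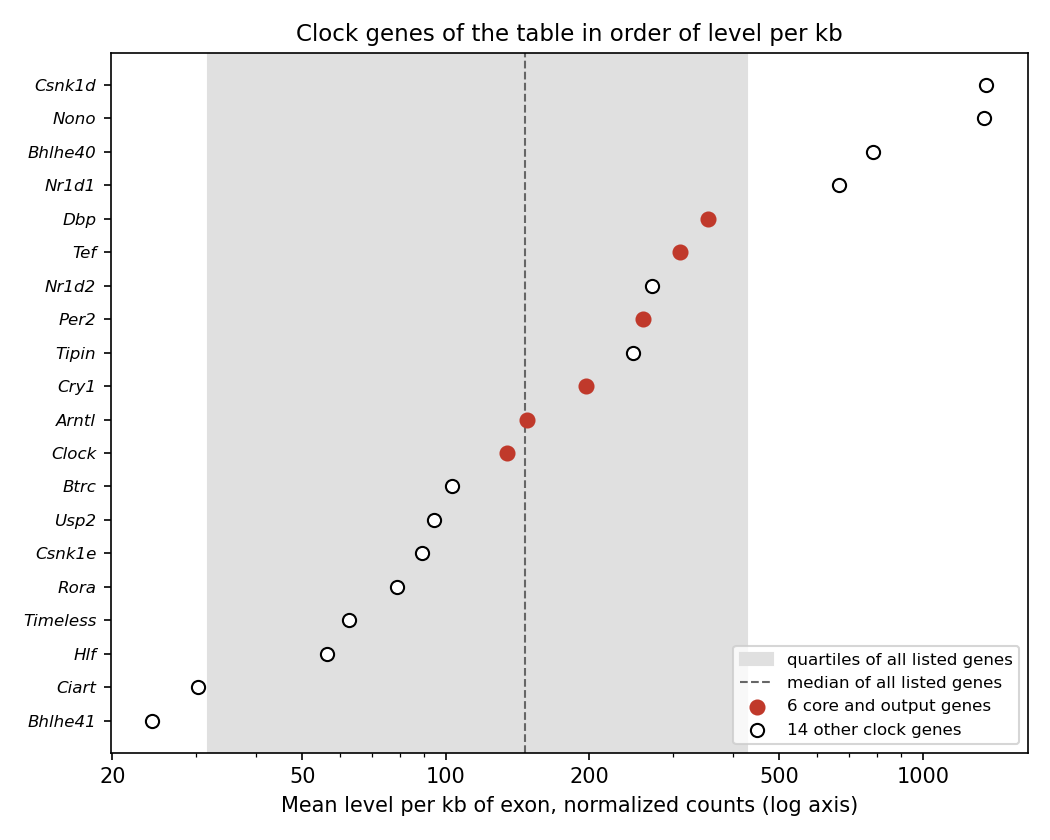
Mean level per kb of exon (x, log axis, normalized counts) of the 20 listed clock genes in order, with Arntl, Clock, Per2, Cry1, Dbp and Tef in red and 14 others as open circles. The grey band spans the quartiles of all listed genes and the dashed line is their median of 147. Dbp (355) is in place 5 and Clock (134) in place 12.

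Together the 6 genes held 0.0389% of the summed means over the table, and the 14 further clock genes 0.113%. For the 5 Leydig cell markers Cyp11a1, Insl3, Cyp17a1, Hsd3b1 and Star this share was 4.62%, and each of them was above 99.8% of the listed genes. Those markers of other testis cells that were in the table had means in the range of the clock genes or below. The macrophage receptor Csf1r had 982 normalized counts, against 659 for Cry1. Per kb of exon it had 170, below Cry1 (197) but above Arntl (148) and Clock (134). The remaining 7 listed markers of Sertoli, progenitor, germ, endothelial and immune cells had 11.6 to 216 normalized counts. The 3 peritubular myoid markers were absent from the table. Sox9 (Sertoli), Nr2f2 (progenitor), Dazl and Pou5f1 (germ), and Tek and Pecam1 (endothelial) were absent too, so the levels of these markers are unknown. How far RNA of such cells adds to the levels of the clock genes was not tested, and in bulk samples fewer cells of a type and less RNA per cell cannot be told apart.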

How the data were processed

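RNA of FLCs (E18.5) and ALCs (P100) was sequenced in 3 libraries per stage. Per the methods, the authors used Casava for demultiplexing and GemTools for mapping, took read counts per gene from a GENCODE annotation of GRCm38, and dropped genes with fewer than 10 reads. The deposited table gives for each gene a signal that the authors computed with DESeq2, namely its size-factor normalized counts averaged over both groups (6 libraries). Its other 5 columns of values hold the authors' comparison of FLCs with ALCs (log2 fold change, standard error, statistic, p-value and adjusted p-value). They were not used, except to check that every listed adjusted p is under 0.05. A sheet of library names and stages holds no measured value and was not used. As no values per library were used, the planned test of FLCs against ALCs was not run, and intervals for counting error could not be given.

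Of the listed genes, 10503 were matched to GENCODE M21 on GRCm38, 10205 by symbol and 298 by an older symbol, and 77 were not. Mean levels were divided by the union of exons, and percentiles are the share of listed genes with a lower value. The authors name a different GENCODE version for their counts, so the exons counted may differ from those whose length was used. Transcripts were compared in stretches of 50 bases, the read length per the labels. RefSeq promoter windows of 300 bases were searched on both strands. The interval and motif functions were tested on simulated data. Python 3.11.15 and pandas 2.3.3 were used. The lists held the genes of the rule, 21 further clock genes, 9 steroidogenesis genes and cell type markers of the paper. Of the steroidogenesis genes, levels are given only for the 5 that are also Leydig cell markers. Some genes planned for these lists are not reported here. Members and lists were chosen with earlier results of these data known.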

Additional observations from a re-analysis of the deposited data

How the results depend on the processing

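The median level of the 6 clock genes, 228 normalized counts per kb with the union of exons, was 270 with the longest transcript, 410 with the median protein-coding transcript and 653 with the coding length. These lengths are shorter by construction, so the level per kb rises. The median percentile of the 6 genes among the listed genes, 65.3 for the mean as deposited, was 65.1 among protein-coding genes only, 63.6 among genes with a mean of at least 10 and 60.2 per kb of exon. An E-box was found in 2 of 5 genes with the full window, with only the 250 bases before the start, and with the E'-box counted too. The shares of the 7928 listed genes with a window were 11.1%, 9.43% and 16.5% with these settings. An exact D-box was found in 0 of 5 genes and, with 1 mismatch allowed, in 1 (Tef), against 951 of the 7928 listed genes with a window.

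No paired analysis was possible because the only column used is a mean over all 6 libraries and carries no replicate number. For the same reason, leaving out single libraries, and other normalizations or no filter on low counts in a test of FLCs against ALCs, were not run. The identity of paralogous proteins was not run, since protein sequences are not used here. Depth per library is unknown, so no limit of detection is given.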

Other observations

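Other clock genes overlap a neighbour on the opposite strand as Dbp does. Nr1d1, which encodes REV-ERB alpha, shared 263 bases of exon (8.55% of its exons) with Thra, a thyroid hormone receptor gene, whose authors' mean was 3800 normalized counts against 2053 for Nr1d1. Bhlhe41 shared 1280 bases (19.0% of its exons) with Gm43909, which has no value here. How reads on these shared bases were counted was not tested.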
